A study of Drosophila melanogaster with 14 samples.

Results

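GAGA factor (GAF), the product of the Trithorax-like (Trl) gene of Drosophila, binds GA-rich DNA, recruits chromatin remodellers and is known for keeping promoters free of nucleosomes, for paused RNA polymerase at heat shock genes and for binding at Polycomb response elements of Hox genes. The sites described here carried a GAF peak in whole embryos and no GAF peak in wing imaginal discs, and no peak of Yorkie (Yki) in either tissue. Yki is the transcriptional coactivator held back by the Hippo growth pathway, and it has no DNA-binding domain of its own. Peaks of the 4 lists of GAF and Yki were joined into merged sites wherever they shared at least 1 bp, and the sites were chosen by the lists of peaks they held: 2423 of the 11285 merged sites held a GAF embryo peak and nothing else. Each of the 2423 sites was a single peak, so they made up 37.4% of the 6470 GAF embryo peaks (95% Wilson interval 36.3 to 38.6). They also made up 39.3% of the 6158 merged sites with a GAF embryo peak.

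Chromatin immunoprecipitation with sequencing (ChIP-seq) had been done on Drosophila melanogaster of the Iso1 strain, from which the reference genome was made, and the labels name no treatment and no further allele for any group. Embryos were 8 to 16 hours old and gave 3 GAF, 3 Yki and 2 H3K4me3 libraries and 1 input library. Wing discs came from wandering larvae of instar 3 and gave 2 GAF, 1 Yki and 2 input libraries. Whole embryos mix all embryonic tissues, whereas the disc is mostly an epithelium, so a site bound in few embryonic cells and a site bound weakly in many cannot be told apart. A single peak list was available per antibody and tissue, with no replicate values and no depth. The embryo lists hold positions only, and absence from a list means that no peak was called, not that no protein was bound. The membership itself is therefore a description of these lists, and the tests below use H3K4me3 and chromosome, which the choice of sites did not use.

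The embryo-alone sites were narrow. Their widths ran from 200 to 4213 bp with a median of 371 bp (quartiles 277 and 528.5), and 1725 of them (71.2%) were under 500 bp. The other 4047 GAF embryo peaks, which overlapped a peak of at least 1 other list, had a median width of 854 bp, and 1027 of them (25.4%) were under 500 bp. The share of GAF embryo peaks that belonged to the embryo-alone sites was 70.6% (66.95 to 73.9) among peaks of 200 to 255 bp, and 46.3% among peaks of 476 to 583 bp. It was 0.773% among peaks of 2019 bp and more, where 5 of 647 peaks were alone. A wide peak meets another peak more readily than a narrow one, so width and membership are tied by the way the sites were chosen, and no test was made of it. GAF sites of wing discs alone were narrow as well, with a median of 340 bp over 1309 sites. Sites with GAF in both tissues and Yki in neither had a median of 650 bp over 1045 merged sites, and the GAF embryo peaks within them one of 501 bp.

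**Figure D1:**
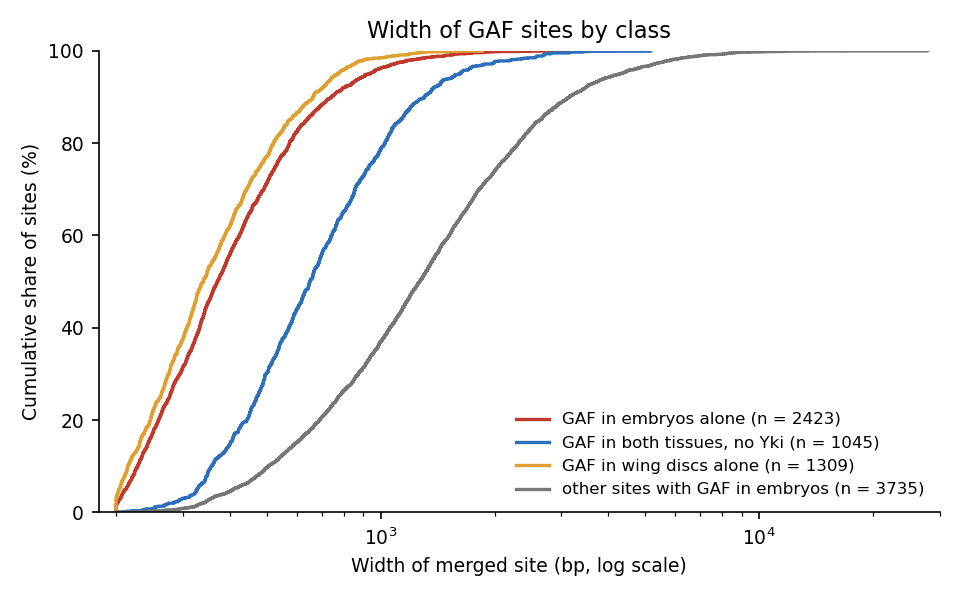
Cumulative share of merged sites (vertical axis, %) by width (horizontal axis, bp, log scale) for embryo-alone GAF sites, sites with GAF in both tissues and no Yki, GAF sites of wing discs alone and all other sites with a GAF embryo peak, which include the both-tissue sites. The curve of the embryo-alone sites, with a median of 371 bp, lies close to that of the disc-alone sites (340 bp) and left of the both-tissue sites (650 bp).

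The widest embryo-alone site covered 4213 bp of 2R, from 6117711 to 6121923 on dm3. Next came a site of 2847 bp on 3R (17382691 to 17385537) and one of 2478 bp on 2R (7556497 to 7558974). The other 2 of the widest 5 covered 2344 bp (21150695 to 21153038) and 2039 bp (6873929 to 6875967) of 2L. None of the 5 overlapped an H3K4me3 peak, and the nearest such peak was 1086 to 35001 bp away. The site at 2L 6873929 stood apart from all 3 other lists by at least 21551 bp, while the other 4 had a peak of another list within 1625 bp. Which genes lie at these and the other named regions was not analysed here.

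The rule leaves few sites near its edge on the overlap side. The smallest gaps to a peak of another list were 3 bp at 2R 9892494 to 9892755, 4 bp at X 3662675 to 3663258, 5 bp at 2R 16861496 to 16861816, 18 bp at 3L 5268903 to 5269173 and 47 bp at 2R 14415815 to 14416106. All 5 lay beside a GAF disc peak. In all, 28 embryo-alone sites had another list within 100 bp, 373 (15.4%) within 500 bp and 675 (27.9%) within 1 kb. Just outside the rule, the smallest overlaps were 4 bp at 2R 14574437 to 14574852, 16 bp at X 6232124 to 6232331, 20 bp at 3R 20809909 to 20810132, 21 bp at 2R 13157148 to 13157954 and 27 bp at 3R 19163000 to 19163297. Only 30 of the 4047 overlapping GAF embryo peaks (0.741%) overlapped by 100 bp or less, and their median overlap was 676 bp. With peaks joined across gaps of up to 500 bp, 1614 embryo-alone sites were left. Such joining also fuses neighbouring embryo-alone peaks into a single site, so the drop does not count sites lost to another list.

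Most embryo-alone sites were not far from other binding. To the nearest merged site of any class the median gap was 1076 bp, close to the 1145 bp over all merged sites. The median gap to the nearest peak of any other list was 2498 bp (quartiles 873 and 8011.5). That nearest peak was a GAF disc peak at 1678 sites (69.3%), a Yki embryo peak at 390 and a Yki disc peak at 355. Those lists hold 6328, 3749 and 6491 peaks, with median widths of 634.5, 438 and 418 bp. By list, the median gap was 3315 bp to GAF in discs, 5485 bp to Yki in embryos and 6496 bp to Yki in discs. At the other end, 57 sites (2.35%) had no peak of the 3 lists within 50 kb. The 4 most isolated sites lay on the unplaced scaffolds U (9934739 to 9935074) and Uextra (9215545 to 9215853, 26811289 to 26811560 and 24898997 to 24899208), at 783310, 704121, 535277 and 532974 bp from the nearest other peak. On scaffolds joined from unplaced pieces, such distances do not measure distance on a chromosome. The most isolated site on a chromosome arm was at 3L 24203273 to 24203722, 175603 bp from the nearest GAF disc peak.

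The sites next to embryo-alone sites were mostly ones with GAF in embryos. Another merged site that was not embryo-alone lay within 1 kb of 831 embryo-alone sites. That neighbour held a GAF embryo peak in 725 cases (87.2%), whereas 42.1% of the 8862 merged sites that were not embryo-alone held one. It was a site of all 4 lists for 347 of them (41.8%), against 17.2% of the 8862 sites. It held GAF of both tissues and Yki of embryos for 155 (18.7%, against 4.43%) and GAF of wing discs alone for 37 (4.45%, against 14.8%). Seen from the other side, 769 of the 8862 sites that were not embryo-alone (8.68%, 8.11 to 9.28) had an embryo-alone GAF site within 1 kb. By class, 124 of the 393 sites with GAF in both tissues and Yki in embryos only (31.6%, 27.2 to 36.3) had one, as did 41 of the 173 sites with GAF and Yki in embryos and neither in discs (23.7%, 18.0 to 30.6). So did 303 of the 1525 sites in all 4 lists (19.9%, 17.9 to 21.9) and 136 of the 1045 both-tissue sites without Yki (13.0%, 11.1 to 15.2). Where GAF was in both tissues and Yki in discs only, 34 of 566 sites did (6.01%, 4.33 to 8.28), and of the 1309 GAF sites of discs alone, 47 did (3.59%, 2.71 to 4.74). Sites with Yki in embryos only and those with Yki in discs only, both with GAF in each tissue, had median widths of 1304 and 1139 bp. These shares are descriptions of the lists, and no test was made of them.

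The GAF disc peaks close to embryo-alone sites ranked high within their own list. The disc list carries the authors' own score for each peak, on a scale that neither the labels nor the list explain. Its median was 86.9 over the 587 GAF disc peaks within 1 kb of an embryo-alone site, against 34.7 over all 6328 GAF disc peaks. Of those 587 peaks, 247 (42.1%) were at or above the upper quartile of the list, against 25.1% of all. That share was 5.72% for GAF disc peaks at both-tissue sites without Yki and 0.229% at disc-alone sites. The score thus differed by class of site, and the 587 peaks were not compared within a class.

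Embryo-alone GAF sites clustered along the chromosomes. The median gap from an embryo-alone site to the next one was 6252.5 bp, and 852 sites (35.2%) had another within 2 kb. The corresponding values were 28358 bp and 12.2% for the 1045 both-tissue sites without Yki, and 20461 bp and 13.5% for the 1309 disc-alone sites. Those classes hold fewer sites, which by itself widens the gaps. The merged site nearest to an embryo-alone site was also embryo-alone in 922 cases (38.1%), whereas 21.5% of all merged sites were embryo-alone. For disc-alone sites the nearest site was of their own class in 18.6% of cases, against 11.6% of all merged sites, and for both-tissue sites without Yki in 13.2%, against 9.26%. No test was made of this clustering. Whether close peaks are parts of a broader bound region was not tested either. With peaks joined within 500 bp 1614 embryo-alone sites were left, and the spacing and the runs below were not recomputed on them.

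Many embryo-alone sites followed one another with no other merged site between them. Of the 2423 sites, 1408 (58.1%) stood in such runs of 2 or more, and 263 (10.9%) in 47 runs of 5 or more. The longest run held 9 sites over 22352 bp at 3R 12701239 to 12723590, with widths of 205 to 1740 bp. The next 2 held 8 sites each, over 6636 bp at X 1873738 to 1880373 and over 15018 bp at 2R 5821284 to 5836301. In the X run, the gaps between neighbouring peaks were 54 to 823 bp. None of the 3 runs contained any base of an H3K4me3 peak. Runs of 6 sites were as short as 3894 bp, at 3R 5256138 to 5260031, where the peaks were 216 to 438 bp wide. For both-tissue sites without Yki the longest run was 4 sites and 24.5% of sites stood in runs, and for disc-alone sites it was 5 sites and 31.6%. Those classes were 9.26% and 11.6% of all merged sites, against 21.5% for embryo-alone sites. A smaller class has shorter runs by itself, and no test was made of the runs.

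**Figure D2:**
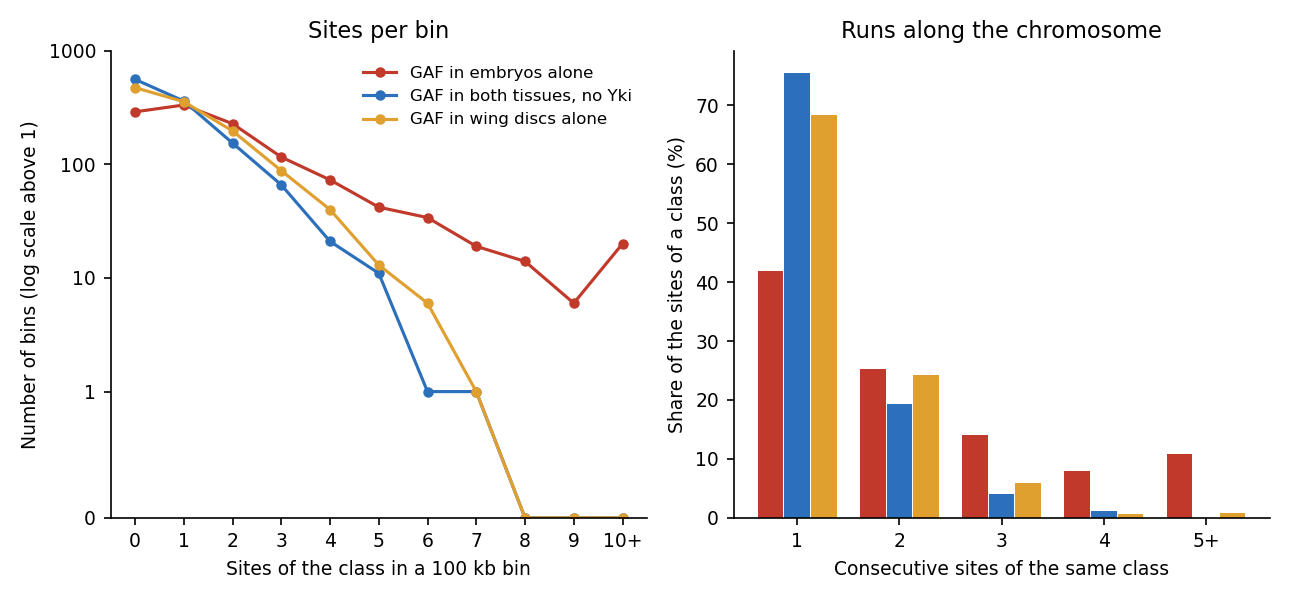
Left, number of 100 kb bins (vertical axis, log scale above 1) by the number of sites of a class in the bin (horizontal axis), for embryo-alone GAF sites, both-tissue GAF sites without Yki and disc-alone GAF sites. Right, share of the sites of each class (%) by the length of the run of consecutive sites of that class in which they stand. Embryo-alone sites reached 22 in a bin and 9 in a run, where the other classes stopped at 7 in a bin and at 4 and 5 in a run. Those classes hold fewer sites, which by itself lowers both numbers.

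Bins of 100 kb showed the same unevenness. On the 6 arms, 885 of 1175 bins that held any peak (75.3%) held an embryo-alone site, with a median of 1. The 135 bins with 5 or more held 980 of the sites (40.4%), and 20 bins held 10 or more. The densest bin, from 18000001 to 18100000 on 3L, held 22 embryo-alone sites, 233 to 788 bp wide, among 37 GAF embryo peaks and 19 GAF disc peaks, with 1 H3K4me3 peak. The bin from 12700001 to 12800000 on 3R held 19 among 24 GAF embryo peaks, with 5 GAF disc peaks and 0 H3K4me3 peaks. Then came 18 sites at 2R 5800001 to 5900000 and 16 at 3R 5200001 to 5300000, where 7 and 11 H3K4me3 peaks lay, and 15 at 2R 6100001 to 6200000. A bin at 3R 19000001 to 19100000 also held 15. In none of these 6 bins did an embryo-alone site overlap an H3K4me3 peak, but this did not hold in bins ranked below them. There, 0 of 14 sites were on H3K4me3 at 2L 12500001 to 12600000 and 2 of 14 at X 1800001 to 1900000. It was 4 of 13 at 3L 18700001 to 18800000 and 2 of 12 at 2R 10600001 to 10700000. Bins rich in embryo-alone sites were also richer in other GAF sites: the mean number of other merged sites with a GAF embryo peak was 2.20 in the 290 bins without an embryo-alone site, 2.74 with 1 or 2, 4.05 with 3 or 4, 5.22 with 5 to 9 and 7.95 in the 20 bins with 10 or more. The mean number of disc-alone GAF sites was 1.03, 1.01, 1.26, 1.35 and 1.15 in the same order. That of H3K4me3 peaks was 4.53, 5.37, 6.58, 6.89 and 4.95, so bins with embryo-alone sites were not poorer in H3K4me3 peaks on average. Across the 1175 bins, which share the calling of each list, Spearman's rho of embryo-alone sites was 0.377 with other GAF embryo sites, 0.215 with both-tissue sites without Yki and 0.0919 with disc-alone sites. With H3K4me3 peaks it was 0.194.

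H3K4me3, the trimethylation of histone H3 at lysine 4 that marks active promoters, was rarely found at the embryo-alone sites. Of the 2423 sites, 133 (5.49%, 4.65 to 6.47) shared at least 1 bp with an H3K4me3 peak of embryos of the same age. The background was 36.0% of all merged sites and 26.0% of all merged sites with a GAF embryo peak. Among the 15 combinations of the 4 lists, embryo-alone GAF had the lowest H3K4me3 share, and the next was GAF in both tissues without Yki with 103 of 1045 sites (9.86%, 8.19 to 11.8). Tests between classes were Fisher's exact test, two-sided, with the Benjamini-Hochberg adjustment over 9 contrasts, and their p-values and intervals cover counting error in these lists only. They also treat sites as independent, although neighbouring sites cluster.

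The H3K4me3 share of embryo-alone sites was lower than that of the both-tissue sites without Yki, with a difference of -4.37 percentage points (-6.50 to -2.44). The odds ratio, embryo-alone over both-tissue, was 0.531 (0.406 to 0.695) and the adjusted p of Fisher's exact test 1.14e-05. Over quartiles of site width the Mantel-Haenszel odds ratio was 0.696 (0.515 to 0.940). Against disc-alone sites, which are of like width, the shares were 5.49% in embryo-alone sites and 25.4% (23.1 to 27.8) in disc-alone sites, with an adjusted p of 3.82e-65 by Fisher's exact test. The odds ratio was 0.171 (0.138 to 0.212), and 0.163 (0.131 to 0.203) over width quartiles. GAF sites called in embryos alone thus overlapped the H3K4me3 peaks of embryos less often than GAF sites called in discs alone did. H3K4me3 of discs was not analysed here. Against all other sites with a GAF embryo peak, 39.3% of which were on H3K4me3, the odds ratio reached 0.0898 (0.0745 to 0.108), with an adjusted p of 2.13e-222 by Fisher's exact test. Those sites were wider, with a median of 1268 bp, and over width quartiles it was 0.280 (0.220 to 0.356). They also differ in Yki, since all of them but the 1045 both-tissue sites held a Yki peak. By combination of lists, 20.8 to 65.8% of those with Yki were on H3K4me3, against 9.86% of the 1045. The width quartiles do not take Yki into account.

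**Figure D3:**
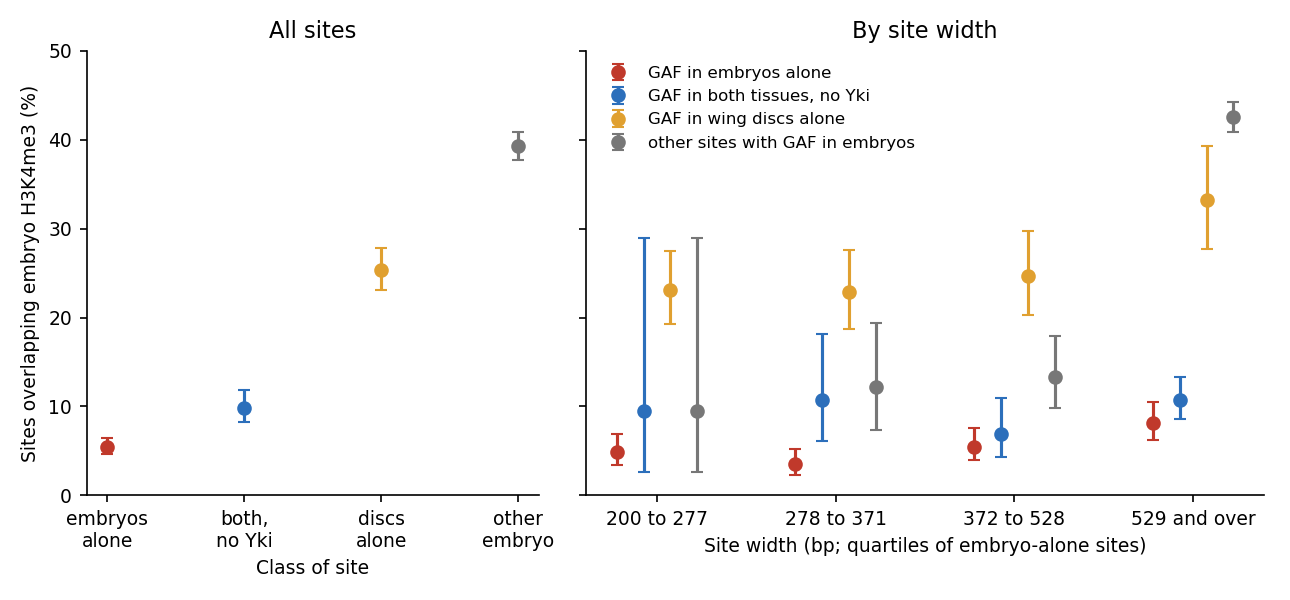
Share of sites overlapping an embryo H3K4me3 peak by at least 1 bp (vertical axis, %), for all sites of each class on the left and by site width on the right, where the width bands are the quartiles of the embryo-alone sites. Bars are 95% Wilson intervals. Embryo-alone sites are lowest in each of the 4 bands, at 3.48 to 8.09%, although their interval overlaps that of the both-tissue sites in every band but 278 to 371 bp.

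Within the embryo-alone sites, overlap with H3K4me3 was most frequent among the widest. The share was 4.91% (3.46 to 6.92) among the 611 sites of 200 to 277 bp, 3.48% (2.29 to 5.26) at 278 to 371 bp, 5.48% (3.93 to 7.60) at 372 to 528 bp and 8.09% (6.17 to 10.5) among the 606 wider ones. Counted by the midpoint of the site, which a wide site does not meet more readily, the 4 shares were 3.93, 2.81, 2.66 and 3.63%. In the same 4 bands of width, disc-alone sites had 23.1, 22.8, 24.7 and 33.2% on H3K4me3 by shared bases. By arm, the share of embryo-alone sites on H3K4me3 ran from 3.94% on 3R and 4.74% on X to 5.06% on 2R, 6.26% on 3L and 8.78% on 2L. On each of these 5 arms it was below the share of both-tissue sites without Yki, with odds ratios of 0.316 to 0.796. On chromosome 4, which is small and largely heterochromatic, 0 of 33 embryo-alone sites were on H3K4me3. An approximate upper limit, taken as 3 counts over the 33 sites, is 9.09%. The other classes were also few there, with 0 of 15 both-tissue sites without Yki and 1 of 7 disc-alone sites. Among all other sites with a GAF embryo peak it was 4 of 31.

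The 133 embryo-alone sites on H3K4me3 mostly lay across the edge of the H3K4me3 peak. Of these, 43 (32.3%) lay wholly inside it, 6 spanned it and 84 crossed an edge. The midpoint of the site was inside at 79 of them (59.4%), and in 25 the shared stretch was 100 bp or less. The H3K4me3 peaks they met had a median width of 1262 bp, the same as that of the 6499 H3K4me3 peaks as a whole. Disc-alone sites on H3K4me3 met wider peaks, with a median of 2262 bp over 332 sites. Crossing an edge was not particular to embryo-alone sites. It was seen at 72 of 103 both-tissue sites without Yki and 212 of 332 disc-alone sites on H3K4me3. The same held for 837 of 1467 among all other sites with a GAF embryo peak. The 5 widest embryo-alone sites on H3K4me3 were at 3L 18754615 to 18756109 (920 bp shared), 3L 21311530 to 21313010 (357 bp), 2L 4995102 to 4996569 (491 bp), 3R 571538 to 572792 (303 bp) and 2R 11876903 to 11878079 (724 bp). All but the 3R site had a peak of another factor list within 474 bp.

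Overlap with H3K4me3 also went with the distance to other binding. Among embryo-alone sites with a peak of another list within 500 bp, 41 of 373 (11.0%, 8.21 to 14.6) were on H3K4me3. The share was 7.95% at 0.5 to 1 kb, 5.05% at 1 to 5 kb and 3.15% at 5 to 20 kb. Beyond 20 kb it was 1.21% (0.414 to 3.51), with 3 of 247 sites, and the median widths of these 5 groups lay between 346 and 389 bp. The distance is to the lists by which the sites were chosen. Sites of the other combinations of lists were themselves on H3K4me3 in 9.86 to 89.7% of cases. A site close to them may thus meet the same H3K4me3 peak, and this was not tested.

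An H3K4me3 peak lay within 5 kb of 950 embryo-alone sites (39.2%, 37.3 to 41.2), against 59.1% of all merged sites and 53.0% of all those with a GAF embryo peak. For disc-alone sites it was 48.2% (odds ratio 0.693, 0.605 to 0.794; adjusted p = 2.91e-07 by Fisher's exact test), and for all other sites with a GAF embryo peak 61.9% (0.397, 0.357 to 0.440; adjusted p = 7.67e-68 by Fisher's exact test). For both-tissue sites without Yki it was 43.2%, a difference of -3.95 points (-7.53 to -0.390; odds ratio 0.849, adjusted p = 0.0316 by Fisher's exact test) that was not detected over width quartiles (0.938, 0.796 to 1.11). Within 20 kb the shares were 73.4% in embryo-alone sites, 73.4% in both-tissue sites without Yki, 75.1% in disc-alone sites and 83.6% in all other sites with a GAF embryo peak (82.4 to 84.7, against 71.6 to 75.1 for embryo-alone sites). The share of embryo-alone sites was thus close to those of both-tissue and disc-alone sites at this distance, and still below that of all other sites with a GAF embryo peak, with no test made at this distance. Among sites that did not overlap H3K4me3, the median distance to it was 8637.5 bp for embryo-alone, 8487.5 bp for both-tissue and 10910 bp for disc-alone sites.

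**Figure D4:**
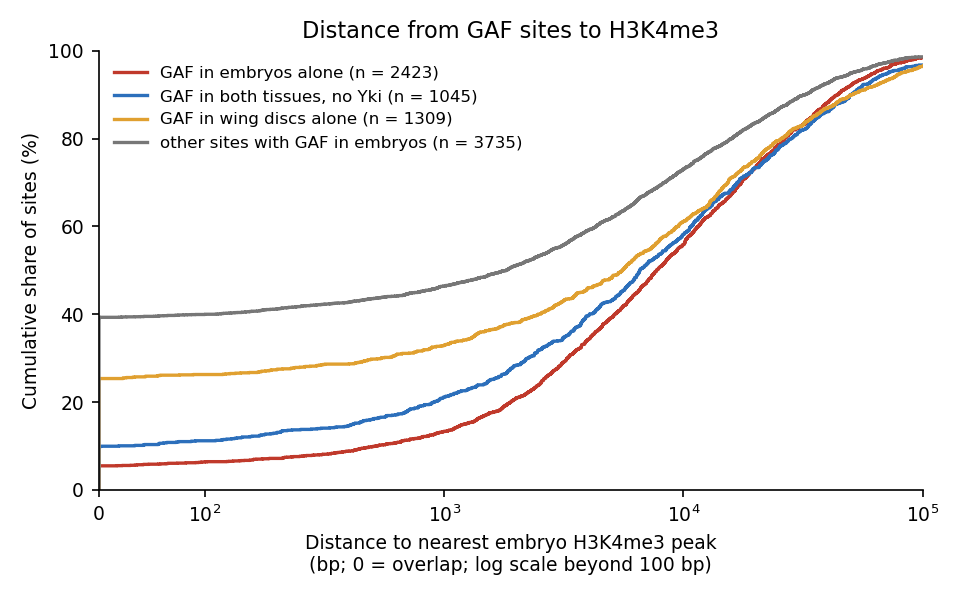
Cumulative share of sites (vertical axis, %) by the distance to the nearest embryo H3K4me3 peak (horizontal axis, bp, 0 for overlap, log scale beyond 100 bp). The embryo-alone curve starts at 5.49%, below 9.86% for both-tissue sites without Yki, 25.4% for disc-alone sites and 39.3% for all other sites with a GAF embryo peak. At 20 kb the first 3 curves come within 2 percentage points of one another, and the curve of all other GAF embryo sites still stands above them at 83.6%.

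The X chromosome held a smaller share of the embryo-alone sites than of the 3 classes they were tested against. Of the 2423 sites, 422 (17.4%, 16.0 to 19.0) were on X, close to the 17.6% of all merged sites, which include those of Yki, and below the 19.3% of all merged sites with a GAF embryo peak. Among both-tissue sites without Yki 23.4% were on X (odds ratio 0.689, 0.577 to 0.822; adjusted p = 6.74e-05 by Fisher's exact test), and among disc-alone sites 23.2% (odds ratio 0.697, 0.591 to 0.823; adjusted p = 3.85e-05 by Fisher's exact test). Against all other sites with a GAF embryo peak, 20.6% of which were on X, the odds ratio came to 0.815 (0.714 to 0.929), with an adjusted p of 0.00266 by Fisher's exact test. That contrast was not past the threshold of 0.05 with peaks joined within 500 bp (0.887, 0.762 to 1.03) or in the wider 50% of each class (0.863, 0.712 to 1.05), and it was 0.649 (0.539 to 0.781) over width quartiles. Several combinations that also hold Yki had a lower X share than the embryo-alone sites, with no test made: 14.5% of the 173 sites with GAF and Yki in embryos only, 17.0% of the 566 with GAF in both tissues and Yki in discs only, 11.4% of the 806 with GAF and Yki in discs only, and 8.70% of the 23 with GAF in embryos and Yki in discs only. Within the embryo-alone sites, X held 19.8% of those of 200 to 277 bp, 17.5% and 18.4% of the next 2 width bands and 13.9% of the widest.

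Turned round, embryo-alone sites were 35.5% (32.8 to 38.2) of the 1190 sites with a GAF embryo peak on X, and 38.7% on 2L, 39.9% on 2R, 40.1% on 3L and 41.5% (39.0 to 44.1) on 3R. On chromosome 4 they were 33 of 64 (51.6%, 39.6 to 63.4). On heterochromatin and unplaced scaffolds they were 14 of 47.

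**Figure D5:**
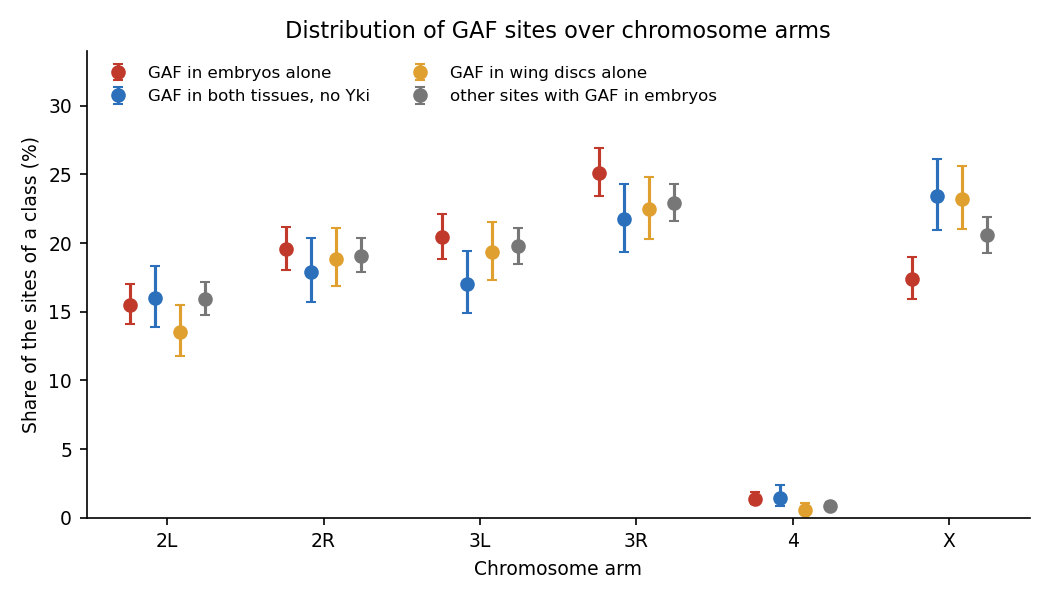
Share of the sites of each class (vertical axis, %) on each chromosome arm (horizontal axis), with 95% Wilson intervals. On X, embryo-alone sites stand at 17.4%, below the other 3 classes drawn at 20.6 to 23.4%, and on 3R they are highest, at 25.1%, with overlapping intervals.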

How the data were processed

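Positions were the peak starts and ends of 5 lists deposited by the authors, in bp (the score of the 2 wing disc lists, per the file's last column, is the authors' own and was used within the GAF disc list only). CASAVA 1.7.0 called bases and BWA and Bowtie are named as aligners to dm3, per the submitters' processing notes. The libraries had gone through transposase tagmentation, 12 cycles of PCR and selection of fragments near 225 bp, per the labels' protocols. Peak names in the disc lists begin with MACS. Not given in the sources used here are the embryo lists' caller, any threshold, how replicates were pooled and whether input was used, so tissues may have been called differently. Depth is unknown. Starts were counted from 0 in the deposited lists and are given from 1.

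Peaks were joined and compared with Python 3.11.15, numpy 2.4.6, pandas 2.3.3, scipy 1.17.1 and statsmodels 0.14.6, and plotted with matplotlib 3.10.9. The joining and overlap steps were tested on simulated lists. Shares carry Wilson, differences Newcombe and odds ratios Wald 95% intervals. Mantel-Haenszel odds ratios used 4 width strata and a chi-square test. Regions named were the 5 widest sites, the 5 most isolated, the 5 nearest to the rule's edge on each side, the 5 widest on H3K4me3 and the 5 fullest bins of 100 kb. The bins named beyond those 5 and the runs were chosen after their values were seen. The sites, classes and tests were chosen with earlier results of these data known. No genome of build dm3 was used, so no sequence or gene is given.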

Additional observations from a re-analysis of the deposited data

How the results depend on the processing

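Of the 9 contrasts, all kept their direction under the alternatives run, which were peaks joined within 500 bp, the widest 50% of each class, autosome arms alone (not for the X share), width quartiles and, for H3K4me3 overlap, the midpoint, 50% coverage and 500 bp distance. The 2 other settings, chosen after seeing the data (X share on the 6 arms alone, and midpoints with width quartiles), changed no call. Calls were lost in 4 cases: the X share against all other GAF embryo sites with joined peaks (odds ratio 0.887) and in the widest 50% (0.863), and H3K4me3 within 5 kb against both-tissue sites in the widest 50% (0.880) and over width quartiles (0.938). Their adjusted p-values were 0.128, 0.164 and 0.243 by Fisher's exact test and 0.449 by the stratified test, and the cause was not tested. Joining within 500 bp left 1614 sites, by its construction. The H3K4me3 share of embryo-alone sites was 4.58% with joined peaks, 6.77% in the widest 50%, 3.26% by midpoint and likewise 3.26% with 50% of the site covered, and 9.82% within 500 bp. No paired analysis was possible because there is 1 list per antibody and tissue, so no replicate could be left out either. The motif contrasts were not run, for want of a genome of the files' build.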
